A study of Mus musculus with 45 samples.

Results

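Macrophages are followed here through 10 of their marker genes in epididymal fat, liver and skeletal muscle of mice of 2 inbred strains on 2 diets. The genes are Csf1r, Adgre1, Tyrobp, Fcer1g, Ctss, Cd68, Lyz2, Mpeg1, Mmp12 and Lgals3. Every probe set of the array that is annotated to 1 of these symbols and to no other gene was taken, which gave 17 probe sets for the 10 genes out of 10833 probe sets for 8251 genes. Ctss (98543_at), Tyrobp (100397_at) and Lgals3 (95706_at) had 1 probe set each and the other 7 genes had 2. Where a gene had 2, the brighter one in the tissue was used. These were 103016_s_at for Cd68, 103507_at for Adgre1, 104354_at for Csf1r, 99071_at for Mpeg1, 100611_at for Lyz2 and 95339_r_at for Mmp12. Fcer1g was read from 162181_f_at in fat and muscle and from 160692_at in liver, and both of its probe sets were dim in every tissue, with means under 5 log2 units.

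The mice were C57Bl/6 (B6) and 129S6/SvEvTac (129S6) inbred animals aged 6 months, fed either low-fat or high-fat food. The study asked how the response of these tissues to dietary fat depends on the genetic background. An array received cRNA from 25 µg of RNA, a pool of 2 to 3 mice, and arrays of a group therefore differ as pools do. The number of arrays per group was 4 for B6 fat, 3 for 129S6 fat and 4 for liver and muscle, apart from 3 for low-fat B6 muscle. A single diet is described, with 21% of its calories from fat, and which of the 2 diets that is could not be told from the labels. Values are log2 RMA intensities, a scale on which 1 unit is a doubling. Differences between diets are taken as high-fat less low-fat, and those between strains as B6 less 129S6, ± SE. A gene rose or fell, or was called, where its p from limma, adjusted over 8251 genes, was under 0.05.

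Macrophages take up dying cells, lipid and debris into lysosomes and depend on the growth factor Csf1, which signals through Csf1r. In adipose tissue of obese mice they are known to gather around dying adipocytes, and in liver the resident Kupffer cells line the sinusoids. The 10 genes cover their surface receptors (Csf1r and Adgre1), the signalling adaptors that pair with activating and Fc receptors (Tyrobp and Fcer1g), proteins of the lysosome and of pathogen killing (Ctss, Cd68, Lyz2 and Mpeg1), and secreted proteins (the elastase Mmp12 and the lectin Lgals3). In RNA from whole tissue, fewer macrophages and less of an RNA per macrophage cannot be told apart.

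The 250 bases before the transcription start are shown for Cd68 and, where a window was held, the genes called in fat or liver, to give the sequences their expression starts from. They were taken from RefSeq on the mouse build GRCm38.p6, which held windows for 7 of the 10 genes, and are written 5′ to 3′ on the strand of the gene. Capitals mark exact matches, on either strand, to 2 short motifs of factors known in macrophages, GAGGAA (the core bound by PU.1) and TGACTCA (bound by AP-1).
Ctss, chr3:95526536-95526785, plus strand: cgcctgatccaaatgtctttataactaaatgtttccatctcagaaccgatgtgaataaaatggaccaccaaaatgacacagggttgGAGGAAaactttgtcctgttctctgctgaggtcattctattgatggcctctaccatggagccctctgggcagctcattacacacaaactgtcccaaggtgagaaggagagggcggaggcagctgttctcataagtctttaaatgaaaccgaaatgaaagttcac
Lgals3, chr14:47373610-47373859, plus strand: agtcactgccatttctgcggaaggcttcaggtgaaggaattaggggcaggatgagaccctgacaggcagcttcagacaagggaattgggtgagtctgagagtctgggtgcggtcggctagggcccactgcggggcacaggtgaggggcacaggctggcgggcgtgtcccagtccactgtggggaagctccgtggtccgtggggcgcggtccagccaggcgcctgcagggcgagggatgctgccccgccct
Mmp12 (first start), chr9:7344147-7344396, plus strand: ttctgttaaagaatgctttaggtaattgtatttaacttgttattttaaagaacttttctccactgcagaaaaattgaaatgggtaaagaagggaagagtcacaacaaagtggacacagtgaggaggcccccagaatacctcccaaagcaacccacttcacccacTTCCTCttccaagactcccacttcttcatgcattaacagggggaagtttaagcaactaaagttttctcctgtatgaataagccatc
Mmp12 (second start), chr9:7347124-7347373, plus strand: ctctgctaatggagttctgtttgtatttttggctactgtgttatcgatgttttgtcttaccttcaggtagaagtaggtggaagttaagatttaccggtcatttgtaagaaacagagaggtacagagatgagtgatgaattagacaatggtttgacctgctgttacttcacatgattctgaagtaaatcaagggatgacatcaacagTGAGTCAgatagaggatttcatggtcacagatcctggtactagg
Mpeg1, chr19:12460520-12460769, plus strand: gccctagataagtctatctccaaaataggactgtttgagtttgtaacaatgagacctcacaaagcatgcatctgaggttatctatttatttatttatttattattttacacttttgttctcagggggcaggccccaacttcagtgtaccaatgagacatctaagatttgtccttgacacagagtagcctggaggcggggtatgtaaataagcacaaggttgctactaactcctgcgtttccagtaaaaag
Lyz2, chr10:117282273-117282522, minus strand: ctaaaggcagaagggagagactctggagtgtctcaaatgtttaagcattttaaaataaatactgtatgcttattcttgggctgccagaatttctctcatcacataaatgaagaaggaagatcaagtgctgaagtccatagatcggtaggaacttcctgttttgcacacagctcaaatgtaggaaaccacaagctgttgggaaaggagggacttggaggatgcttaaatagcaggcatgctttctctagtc
Cd68, chr11:69666171-69666420, minus strand: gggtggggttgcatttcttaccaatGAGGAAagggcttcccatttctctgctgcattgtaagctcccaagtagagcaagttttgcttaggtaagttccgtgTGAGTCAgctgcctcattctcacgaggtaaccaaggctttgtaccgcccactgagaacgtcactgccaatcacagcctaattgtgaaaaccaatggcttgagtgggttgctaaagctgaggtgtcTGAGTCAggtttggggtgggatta
The window of Ctss held GAGGAA on the strand of the gene, beginning 164 bases before the start. In Mmp12, the window of the first start held it on the other strand, as TTCCTC from 86 bases before the start, and that of the second start held TGAGTCA, which is TGACTCA on the other strand, from 44 bases before. Cd68 held TGAGTCA from 24 and from 149 bases before its start and GAGGAA from 225 bases before. The windows of Lgals3, Mpeg1, Lyz2 and Fcer1g held neither. Of all 32851 windows of this length in the same table, 23.3% held GAGGAA and 4.46% held TGACTCA, counting both strands. A match is a description of the letters and not evidence of binding.

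Some arrays stood apart from the others of their group. The Gapdh control probe sets, read as 3′ minus 5′ signal, rise where RNA is degraded or cDNA is short. In fat this signal was 6.03 log2 units in array 7 of B6 mice on the high-fat diet and 5.81 and 5.93 in arrays 12 and 13 of 129S6 mice on the high-fat diet, 2.36 in array 8 of B6 mice on the high-fat diet, and between -0.06 and 0.41 in the other 10 fat arrays. High values in fat therefore occurred only in the high-fat groups. In liver, array 13 of B6 mice on the high-fat diet was high in 8 of the 10 marker genes. In the labels the arrays are numbered in runs. In fat, one run holds all B6 arrays with low-fat array 9 of 129S6, and the other holds the remaining 129S6 arrays. In liver, B6 low-fat arrays form a run of their own. The labels do not say whether the arrays of a run were processed together. The mean of 9 adipocyte genes lay between 9.69 and 10.6 in fat arrays, against 5.82 to 6.36 in liver, and that of 11 hepatocyte genes lay between 11.78 and 12.4 in liver arrays, against 7.09 to 9.26 in fat.

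Epididymal fat of 129S6 mice had higher levels of macrophage marker genes on the high-fat than on the low-fat diet. Of the 10 genes, 5 rose (Ctss, Tyrobp, Lgals3, Mpeg1 and Mmp12), by 3.82 to 5.53 times, and none fell. Over all genes, 0.751% were called in this comparison, 0.448% as higher. The marker genes were chosen with earlier results of these data known. Shares over all genes, here and below, therefore serve as description and not as independent support. The diet groups did not overlap for 8 of the 10 genes, where 14.5% of all genes were higher without overlap. The median difference of the 10 genes was 1.97, against 0.01 for all genes. In B6 mice, no marker gene was called between the diets, where 0.279% of all genes were, while 6 of the 10 had an unadjusted p under 0.05. The diet groups of B6 mice did not overlap for 4 genes (Ctss, Tyrobp, Lgals3 and Mpeg1), where 5.73% of all genes were higher without overlap.

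Csf1r, the receptor for Csf1, had log2 values of 8.20, 8.02 and 8.23 on the low-fat and 8.87, 8.79 and 8.52 on the high-fat diet in fat of 129S6 mice. In B6 mice Csf1r read 8.57, 8.59, 9.26 and 8.50 on the low-fat and 9.21, 8.76, 9.74 and 9.75 on the high-fat diet. The 129S6 diet groups did not overlap, but the difference of 0.58 ± 0.26 did not pass the test (adjusted p = 0.342), and in B6 mice the groups overlapped because low-fat array 4 lay within the range of the high-fat arrays. Adgre1, a surface receptor long used to identify mouse macrophages, read 7.29, 6.95 and 7.50 on the low-fat and 8.74, 11.35 and 8.72 on the high-fat diet in 129S6 mice. In B6 mice Adgre1 read 7.68, 7.82, 8.69 and 8.07 on the low-fat and 9.23, 8.66, 10.18 and 9.22 on the high-fat diet. The highest values of Adgre1 came from arrays 13 (129S6) and 7 (B6), both with a high Gapdh signal, and high-fat arrays lay above low-fat arrays in 129S6 mice and overlapped by a single array in B6 mice. The differences were 2.35 ± 0.58 in 129S6 mice (adjusted p = 0.0995) and 1.26 ± 0.50 in B6 mice (adjusted p = 0.300), neither called.

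Tyrobp, the adaptor of activating receptors such as Trem2, read 7.57, 7.52 and 8.16 on the low-fat and 9.37, 11.21 and 9.76 on the high-fat diet in 129S6 fat. In B6 fat Tyrobp read 9.05, 8.82, 9.39 and 9.08 on the low-fat and 10.00, 9.71, 10.93 and 10.60 on the high-fat diet. All high-fat arrays lay above all low-fat arrays of their strain in both strains. The rise was 2.36 ± 0.41 in 129S6 mice (adjusted p = 0.0205), and the difference in B6 mice was 1.22 ± 0.36 (adjusted p = 0.205). Fcer1g, the chain shared by Fc receptors, stayed between 4.38 and 5.37 in 13 of the 14 fat arrays and read 6.52 in array 13 of 129S6 mice on the high-fat diet. Its levels are near the lower end of the scale, in the dimmest part (1 in 3) of the genes, and no diet difference was called.

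Among the lysosomal and antimicrobial genes, Ctss, a cysteine protease of the lysosome, read 7.51, 7.52 and 8.28 on the low-fat and 9.84, 11.17 and 9.69 on the high-fat diet in 129S6 mice. In B6 mice Ctss read 9.59, 9.39, 9.93 and 9.95 on the low-fat and 10.49, 10.10, 11.33 and 10.90 on the high-fat diet. The diet groups did not overlap in either strain, and low-fat 129S6 arrays were the lowest of all. Ctss rose by 2.47 ± 0.39 in 129S6 mice (adjusted p = 0.0101), and its difference in B6 mice was 0.99 ± 0.33 (adjusted p = 0.245). Mpeg1, a pore-forming protein of phagosomes, read 7.42, 7.45 and 7.42 against 9.25, 10.12 and 8.97 in 129S6 mice. In B6 mice Mpeg1 read 8.77, 8.47, 9.28 and 9.00 against 9.65, 9.67, 10.45 and 10.37. Again no high-fat array was as low as a low-fat array of its strain. The rise of Mpeg1 in 129S6 mice was 2.01 ± 0.30 (adjusted p = 0.00831), and its difference in B6 mice was 1.15 ± 0.26 (adjusted p = 0.107).

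Cd68, a glycoprotein of late endosomes and lysosomes, read 7.70, 7.58 and 7.92 on the low-fat and 8.66, 7.42 and 9.47 on the high-fat diet in 129S6 mice. In B6 mice Cd68 read 9.22, 8.70, 9.49 and 9.16 on the low-fat and 10.45, 9.85, 7.86 and 10.79 on the high-fat diet. Array 7 of B6 and array 13 of 129S6, which had the highest values of Adgre1, Tyrobp and Ctss in their groups, had the lowest values of Cd68 there. The diet differences of Cd68 were 0.60 ± 0.55 in B6 mice and 0.78 ± 0.63 in 129S6 mice, neither called. Without the 3 fat arrays whose Gapdh signal was above 3, a comparison added after the data were seen, the Cd68 differences were 1.22 in B6 mice (adjusted p = 0.0164) and 1.73 in 129S6 mice (adjusted p = 0.0194), both called. Tyrobp (1.02, adjusted p = 0.0319) and Mpeg1 (1.02, adjusted p = 0.0242) were then also called in B6 mice. In 129S6 mice Ctss, Tyrobp, Lgals3 and Mpeg1 were called again and Mmp12 was not (1.89, adjusted p = 0.0936). That comparison leaves 1 high-fat array of 129S6, which is assumed to vary like the other groups. Lyz2, the lysozyme of macrophages, read 8.68, 8.52 and 9.46 against 9.80, 10.11 and 9.92 in 129S6 mice, and its groups did not overlap. In B6 mice Lyz2 read 10.01, 10.18, 11.01 and 10.58 against 10.61, 10.40, 11.11 and 10.92, with overlap. The differences were 1.05 ± 0.29 (adjusted p = 0.133) and 0.32 ± 0.25 (adjusted p = 0.502). A probe set shared by Lyz1 and Lyz2 (101753_s_at), outside the rule, read 8.07 in 129S6 array 13 and 9.82 in B6 array 7, the lowest of their groups, as for Cd68.

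Of the secreted proteins, Lgals3, the lectin galectin-3, read 5.42, 5.55 and 6.34 on the low-fat and 8.05, 8.00 and 8.32 on the high-fat diet in 129S6 mice. In B6 mice Lgals3 read 8.49, 7.91, 8.41 and 8.59 on the low-fat and 9.44, 8.72, 9.97 and 9.61 on the high-fat diet. Neither strain's diet groups overlapped, and the 3 high-fat 129S6 arrays lay close together whatever their Gapdh signal. Lgals3 rose by 2.35 ± 0.30 in 129S6 mice (adjusted p = 0.00388), the smallest adjusted p of the 10 genes in this comparison, and its difference in B6 mice was 1.08 ± 0.26 (adjusted p = 0.124). Mmp12, macrophage elastase, read 5.81, 5.96 and 6.48 against 7.73, 8.35 and 7.97 in 129S6 mice. In B6 mice Mmp12 read 8.97, 8.56, 10.02 and 9.35 against 8.83, 8.27, 9.83 and 9.51. Mmp12 was the only one of the 10 genes with a negative diet difference in B6 mice, -0.12 ± 0.35 (adjusted p = 0.870), while it rose by 1.94 ± 0.40 in 129S6 mice (adjusted p = 0.0483). Its second probe set, 95338_s_at, read 4.83, 4.93 and 5.41 against 7.20, 7.32 and 7.69 in 129S6 mice, a difference of 2.35 ± 0.41, and its difference in B6 mice was 0.34 ± 0.35, so the negative sign held for 1 of the 2 probe sets.

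**Figure D1:**
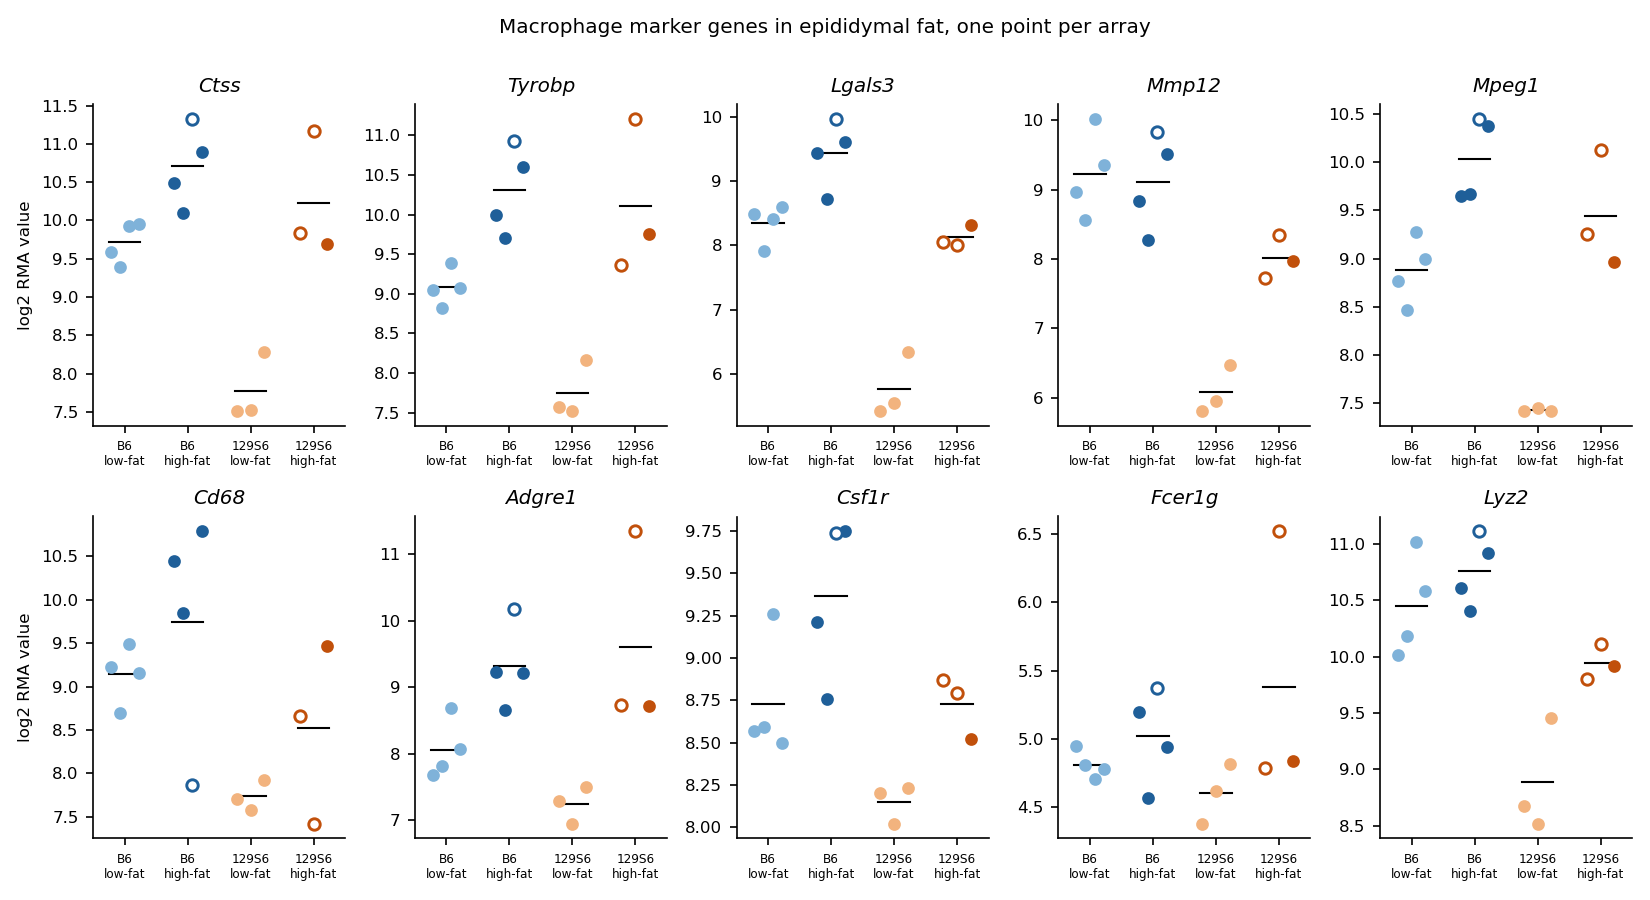
Log2 RMA values of the 10 macrophage marker genes in epididymal fat, with 1 point per array, a black line at each group mean and a vertical axis of its own in each panel; open points are the 3 arrays whose Gapdh signal (3′ minus 5′) was above 3. Low-fat 129S6 arrays were the lowest of the 4 groups for Ctss, Tyrobp, Lgals3, Mmp12, Mpeg1, Adgre1, Csf1r and Lyz2.

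The diet calls in 129S6 fat rested on few arrays. With low-fat array 9 or array 10 of 129S6 left out, 1 gene remained called instead of 5, and it was Lgals3, with differences of 2.18 (adjusted p = 0.0387) and 2.24 (adjusted p = 0.0294). With array 7 of B6 left out, 7 genes were called, with Adgre1 (adjusted p = 0.0167) and Lyz2 (adjusted p = 0.0259) added. The call of Mmp12 was lost on leaving out any of 11 of the 14 fat arrays, with an adjusted p of up to 0.236. With the run of array numbers as a term, which compares the 129S6 diets within 1 run, the differences were 2.34 for Ctss, 2.27 for Tyrobp, 2.18 for Lgals3, 2.01 for Mpeg1 and 1.80 for Mmp12, and Lgals3 alone was called. With the Gapdh signal as a covariate, Lgals3, Ctss and Mpeg1 were called. Array 14, the high-fat 129S6 array with a low Gapdh signal (0.37), lay above every low-fat 129S6 array for each of the 10 genes.

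**Figure D2:**
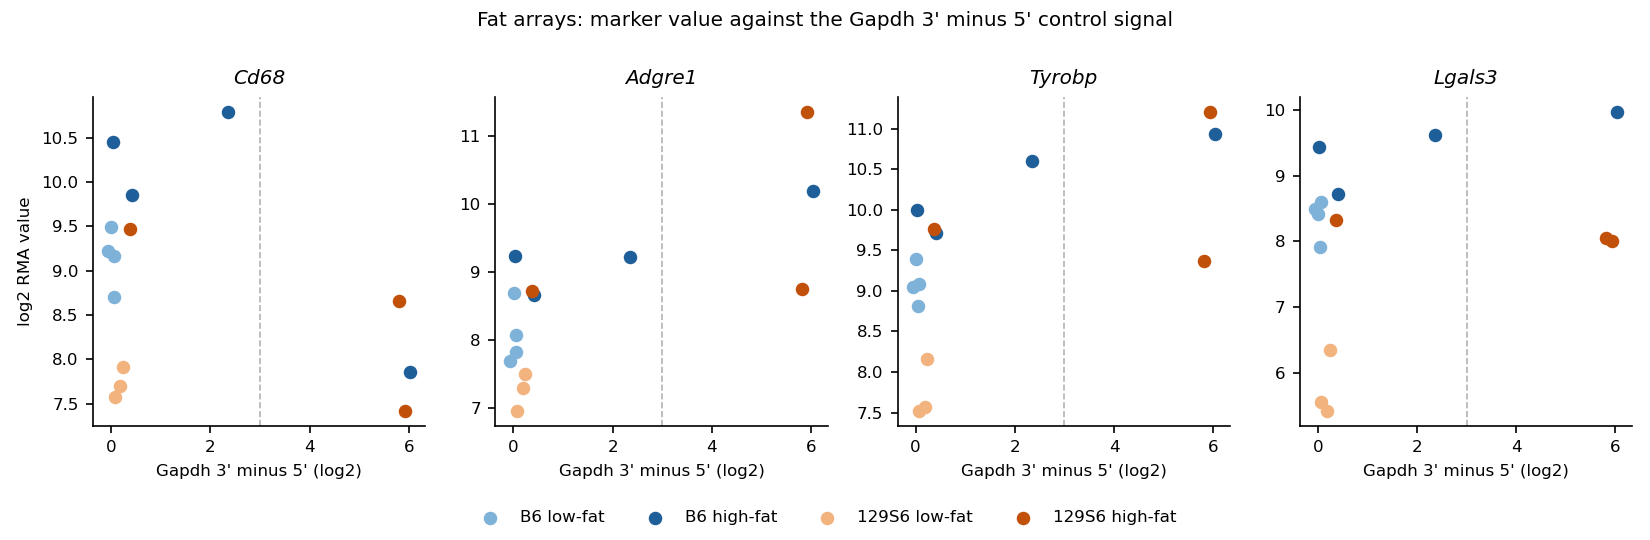
Log2 RMA values of Cd68, Adgre1, Tyrobp and Lgals3 in the 14 fat arrays against the Gapdh 3′ minus 5′ control signal in log2 units, with 1 point per array coloured by group and a dashed line at 3. The 3 arrays to the right of the line, all from high-fat groups, read 7.42, 7.86 and 8.66 for Cd68 and 8.74, 10.18 and 11.35 for Adgre1.

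On the low-fat diet, B6 fat had higher levels of macrophage marker genes than 129S6 fat. Of the 10 genes, 5 were higher (Mmp12, Lgals3, Ctss, Lyz2 and Mpeg1) and none lower, where 1.08% of all genes were called, 0.4% as higher in B6 mice. The strain groups did not overlap for 9 of the 10 genes, all higher in B6 mice, where 7.66% of all genes were higher without overlap, and the exception was Fcer1g. Mmp12 differed by 3.14 ± 0.38, or 8.83 times (adjusted p = 0.00102), the largest strain difference of the 10, and 3.15 ± 0.38 on its second probe set. Lgals3 differed by 2.58 ± 0.28 (adjusted p = 0.000666), Ctss by 1.94 ± 0.36 (adjusted p = 0.0175), Lyz2 by 1.56 ± 0.27 (adjusted p = 0.0125) and Mpeg1 by 1.45 ± 0.28 (adjusted p = 0.0223). The other 5 differences ran from 0.20 for Fcer1g to 1.41 for Cd68, with none called. None of these low-fat arrays had a Gapdh signal above 0.24. With the 3 arrays of high signal left out, which changes only the pooled spread here, 8 genes were called, all but Csf1r and Fcer1g. With 129S6 array 9 or 10 left out, 2 genes remained called, Lgals3 and Mmp12, with B6 array 4 or 5 left out 3 genes were, and with the run of array numbers as a term again Lgals3 (2.93) and Mmp12 (3.42).

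On the high-fat diet no marker gene was called between the strains in fat, where 0.436% of all genes were. The differences ran from -0.36 for Fcer1g to 1.31 for Lgals3. Lgals3 and Lyz2 were higher in every B6 array than in every 129S6 array, as 3.03% of all genes were. Lgals3 came nearest to the threshold, with a difference of 1.31 ± 0.28 (adjusted p = 0.0778), and it was called without B6 array 6 (1.55, adjusted p = 0.0163) or B6 array 7 (1.13, adjusted p = 0.0192). Cd68 differed by 1.23 ± 0.59 (adjusted p = 0.595), and by 1.85 without B6 array 7 (adjusted p = 0.0125). The B6 diet difference less the 129S6 one was negative for 9 of the 10 genes, from -2.05 ± 0.54 for Mmp12 to 0.06 for Csf1r. None of these was called, and 0% of the 8251 genes were, while 4 of the 10 had an unadjusted p under 0.05. That the diet response of the marker genes differs between the strains in fat was therefore not shown.

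Other genes of the same cells were tested from lists. Of 19 measured macrophage and monocyte genes outside the 10, none was called in any of the 5 fat comparisons, and their median difference was 0.09 between the diets in 129S6 mice, -0.03 in B6 mice and 0.45 between the strains on the low-fat diet, when 18 of 19 were higher in B6 mice. Some spread widely on the high-fat diet. C1qa had an SD of 2.46 in high-fat B6 and 2.16 in high-fat 129S6 fat, against 0.22 and 0.28 on the low-fat diet. C1qb and C1qc also spread more in both high-fat groups. These fits included the 3 arrays whose Gapdh signal was above 3, all from high-fat groups, and values without them are not given for this list. The 18 measured genes of lysosomes and lipid-associated macrophages gave 4 rises between the diets in 129S6 fat, among them Lgmn, the lysosomal protease legumain (1.41 ± 0.23, adjusted p = 0.0117), Ctsz (1.23 ± 0.22, adjusted p = 0.0220) and Ctsl (1.27 ± 0.24, adjusted p = 0.0267), both cathepsins. Lgmn also rose in B6 fat (1.14 ± 0.20, adjusted p = 0.0323), from 7.39 to 7.73 on the low-fat diet to 8.31 to 9.27 on the high-fat diet. The calls of Lgmn, Ctsz and Ctsl in 129S6 mice were lost with the run of array numbers as a term, with differences of 1.35, 1.21 and 1.26. With the Gapdh signal as a covariate Ctsz (1.01) and Ctsl (0.83) were not called either (both adjusted p = 0.126). The call of Lgmn in B6 mice was lost with the run, only the 2 groups or the SD of an array's values (adjusted p = 0.0614, 0.185 and 0.347). All B6 fat arrays lie in 1 run, so the run term left this difference at 1.14 and changed only the estimate of spread. Between the strains on the low-fat diet, Npc2, a cholesterol carrier of the lysosome (1.18 ± 0.20, adjusted p = 0.0125), and Ctsh (0.81 ± 0.16, adjusted p = 0.0248) were higher in B6 fat. On the high-fat diet Ctsk, another cathepsin, was higher in B6 fat (1.57 ± 0.27, adjusted p = 0.0169). These 3 calls were also lost with the run as a term, and that of Ctsk with only the 2 groups (adjusted p = 0.512) or the array SD (adjusted p = 0.0518). Of the Kupffer cell, NADPH oxidase, Fc receptor signalling, colony-stimulating factor and myeloid transcription factor lists, with 8, 5, 15, 7 and 11 measured genes, none had a called member in fat. Neither had a list of 12 genes of other matrix proteinases and their Timp inhibitors, or a list of 7 genes of other galectins and the galectin-binding Lgals3bp.

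Gene lists named for other cells gave these values in fat, where the name of a list does not show which cells its RNA came from. Of 13 genes common to all leukocytes, 12 were higher in B6 mice on the low-fat diet, with a median of 0.72, and Lcp1, an actin-bundling protein of leukocytes, was called (1.31 ± 0.26, adjusted p = 0.0274). The call of Lcp1 was lost with the run of array numbers as a term (1.26, adjusted p = 0.438), with the mean of its probe sets (0.96, adjusted p = 0.0719) and with the array SD as a covariate (1.33, adjusted p = 0.0602). The leukocyte mean ranged from 7.59 to 7.94 in low-fat B6, 7.55 to 8.40 in high-fat B6, 6.90 to 7.27 in low-fat 129S6 and 7.11 to 8.10 in high-fat 129S6 arrays. Among 17 T and NK cell, 8 B cell, 13 neutrophil, 8 mast cell and 6 dendritic cell genes, 1 T cell gene was called in fat, Cd3d between the strains on the high-fat diet (0.59). The mean of 3 epididymis genes reached 11.78 in low-fat B6, 11.27 in high-fat B6, 8.64 in low-fat 129S6 and 6.56 in high-fat 129S6 arrays, with lowest values of 5.57 to 6.21 in each group. Of 9 adipocyte genes, 7 were lower in B6 than in 129S6 fat on the low-fat diet (median -0.70, 1 called, as higher), and between the diets in 129S6 mice 1 rose and 1 fell (median -0.19). The adipocyte mean was 10.39 to 10.6 in low-fat 129S6 arrays and did not reach that in high-fat 129S6 (9.69 to 10.28) or low-fat B6 arrays (9.89 to 10.36). Upk3b, a mesothelial gene, fell between the diets in 129S6 (-1.02 ± 0.15, adjusted p = 0.00831) and B6 fat (-0.72 ± 0.13, adjusted p = 0.0474). Both calls were lost with the run as a term (adjusted p = 0.0622 and 0.0815), which left the B6 difference at -0.72. The B6 call was also lost with all probe sets, gene-specific sets, only the 2 groups, an intensity trend, the Gapdh covariate or the array SD, with adjusted p of 0.0507 to 0.372. The mean of the 10 mesothelial and stromal genes was 8.28 to 8.43 in low-fat and 8.18 to 8.27 in high-fat 129S6 arrays. The mean of 4 red blood cell genes was 8.30 to 8.50 in low-fat and 7.91 to 8.05 in high-fat 129S6 arrays, and 7.79 to 8.13 in low-fat B6 arrays. The mean of 11 hepatocyte genes was 7.19 to 7.78 in low-fat B6 and 8.27 to 9.26 in low-fat 129S6 arrays, and of these genes Cyp2e1 was called, as lower in B6 fat (-1.45 ± 0.31, adjusted p = 0.0437) and as lower on the high-fat diet in 129S6 mice (-1.93 ± 0.33, adjusted p = 0.0193). Low-fat 129S6 arrays thus lay above low-fat B6 arrays in the adipocyte, red blood cell and hepatocyte means, and above high-fat 129S6 arrays in the adipocyte, red blood cell and mesothelial means. The part of RNA from other cells in the marker differences was not tested.

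The 10 genes followed each other to different degrees across the 14 fat arrays, which share their groups and their pools. Ctss had a median Pearson correlation of 0.872 with the other 9, Mpeg1 0.859, Lgals3 0.845 and Lyz2 0.843. Adgre1 stood at 0.672, Cd68 at 0.459 and Fcer1g at 0.338. After each group's mean was subtracted, Ctss still stood at 0.789 while Cd68 stood at -0.467. The 5 other genes of the array most like the mean of the 10 in fat were Lilr4b (r = 0.97), a receptor of the leukocyte immunoglobulin-like family, Emp3 (0.951), Irf8 (0.948), a transcription factor of the myeloid line, Ccl2 (0.947), a chemokine that attracts monocytes, and Blnk (0.94), all over 14 arrays. Ccl2 had group means of 4.57 in low-fat 129S6, 7.18 in high-fat 129S6, 7.67 in low-fat B6 and 8.28 in high-fat B6 fat. Without the 2 arrays farthest from the median of the mean, the 5 correlations were 0.873 to 0.946.

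In liver, 2 macrophage marker genes rose between the diets, both in B6 mice. These were Mmp12 and Lgals3, and no marker gene fell, where 18.2% of all genes were called, 6.21% as higher. In 129S6 mice no marker gene was called, where 0.23% of all genes were, and none had an unadjusted p under 0.05. The median difference of the 10 genes was 0.35 in B6 and 0.18 in 129S6 mice, against 0.02 and 0.01 for all genes. The diet groups of B6 mice did not overlap for Mmp12 and Lgals3, where 12.1% of all genes were higher without overlap.

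Mmp12 read 5.24, 5.34, 5.33 and 5.52 on the low-fat and 6.21, 6.11, 6.41 and 6.53 on the high-fat diet in B6 liver. In 129S6 liver Mmp12 read 5.76, 5.89, 5.13 and 5.52 on the low-fat and 5.57, 5.67, 5.62 and 5.77 on the high-fat diet. All 4 high-fat B6 arrays were above every other liver array, including those of 129S6 mice. Mmp12 rose by 0.96 ± 0.14 in B6 mice, or 1.94 times (adjusted p = 0.000221), and differed by 0.08 ± 0.14 in 129S6 mice (adjusted p = 0.932). The 2 diet differences differed from each other by 0.87 ± 0.19 (adjusted p = 0.0138), the only one of the 10 genes called in that test, where 5.49% of all genes were, 0.861% as higher. Its second probe set gave 0.65 ± 0.11 in B6 mice (adjusted p = 0.00115) and 0.64 ± 0.16 for the difference between the strains (adjusted p = 0.0327). With each array left out in turn, the rise in B6 mice stayed between 0.89 and 1.02, and the adjusted p was at most 0.00127. Mmp12 lies in the dimmest part (1 in 3) of the genes in liver, and the low-fat B6 arrays form a run of array numbers of their own, so diet and run cannot be told apart in B6 liver. The Gapdh signal also separated these groups, at 0.82 to 1.69 in the low-fat and 0.22 to 0.35 in the high-fat B6 arrays, and with it as a covariate the rise of Mmp12 was 0.79 (adjusted p = 2.84e-04). The SD of all values of an array separated them too, at 1.87 to 1.94 in the low-fat and 1.80 to 1.84 in the high-fat B6 arrays. With this SD as a covariate, Mmp12 was no longer called in the test of the strains' diet differences. The means of hepatocyte genes (12.16 to 12.31 against 11.78 to 12.14), red blood cell genes (8.22 to 8.61 against 7.90 to 8.01) and mesothelial and stromal genes (7.30 to 7.38 against 7.47 to 7.65) did not overlap between the low-fat and high-fat B6 arrays either, and their part was not tested. The 2 low-fat 129S6 arrays that share a run with the high-fat B6 arrays read 5.13 and 5.52 for Mmp12.

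Array 13 gave the highest values of most other marker genes in B6 liver on the high-fat diet. For Lgals3 the rest of that group also lay above the low-fat arrays. Lgals3 read 3.86, 3.98, 4.07 and 4.12 on the low-fat and 6.05, 4.50, 4.20 and 4.43 on the high-fat diet, where array 13 had the 6.05. The groups did not overlap, and Lgals3 rose by 0.79 ± 0.27 (adjusted p = 0.0488). Like Mmp12, Lgals3 lies in the dimmest part (1 in 3) of the genes in liver. Without array 13 the difference was 0.37 (adjusted p = 0.0171), and it did not pass with any of 11 other arrays left out. Ctss read 7.66, 7.79, 7.80 and 8.20 against 10.19, 8.16, 7.89 and 7.99, and Mpeg1 read 8.24, 8.12, 8.13 and 8.48 against 10.28, 8.41, 8.31 and 8.43. For both, array 13 was about 2 units above the other 3 arrays of its group. Their differences were 0.70 ± 0.39 and 0.62 ± 0.31, neither called, and 0.15 and 0.14 without array 13. Lyz2 read 9.82 in array 13 and 6.78 to 7.18 in the other 3, and its difference turned from 0.27 to -0.43 without array 13, neither called. Tyrobp (9.00), Csf1r (8.81), Adgre1 (8.40) and Cd68 (8.29) were also highest in array 13 of all liver arrays. Fcer1g read 4.68 there, within the range of the other liver arrays.

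Array 13 of B6 liver was also high for other leukocyte genes. The mean of the 13 genes common to leukocytes was 7.56 in it and 6.57 to 6.67 in the other 3 arrays of its group. The 19 other macrophage and monocyte genes averaged 6.78 against 5.92 to 5.94, the 8 Kupffer cell genes 8.18 against 7.39 to 7.51, and the 5 NADPH oxidase genes 7.73 against 6.77 to 6.80. T and NK cell genes averaged 5.62 against 5.41 to 5.44, B cell genes 6.37 against 6.34 to 6.37 and neutrophil genes 5.78 against 5.83 to 5.86. Skeletal muscle genes averaged 7.00 against 5.98 to 6.28. The part of any of these in the high marker values was not tested.

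**Figure D3:**
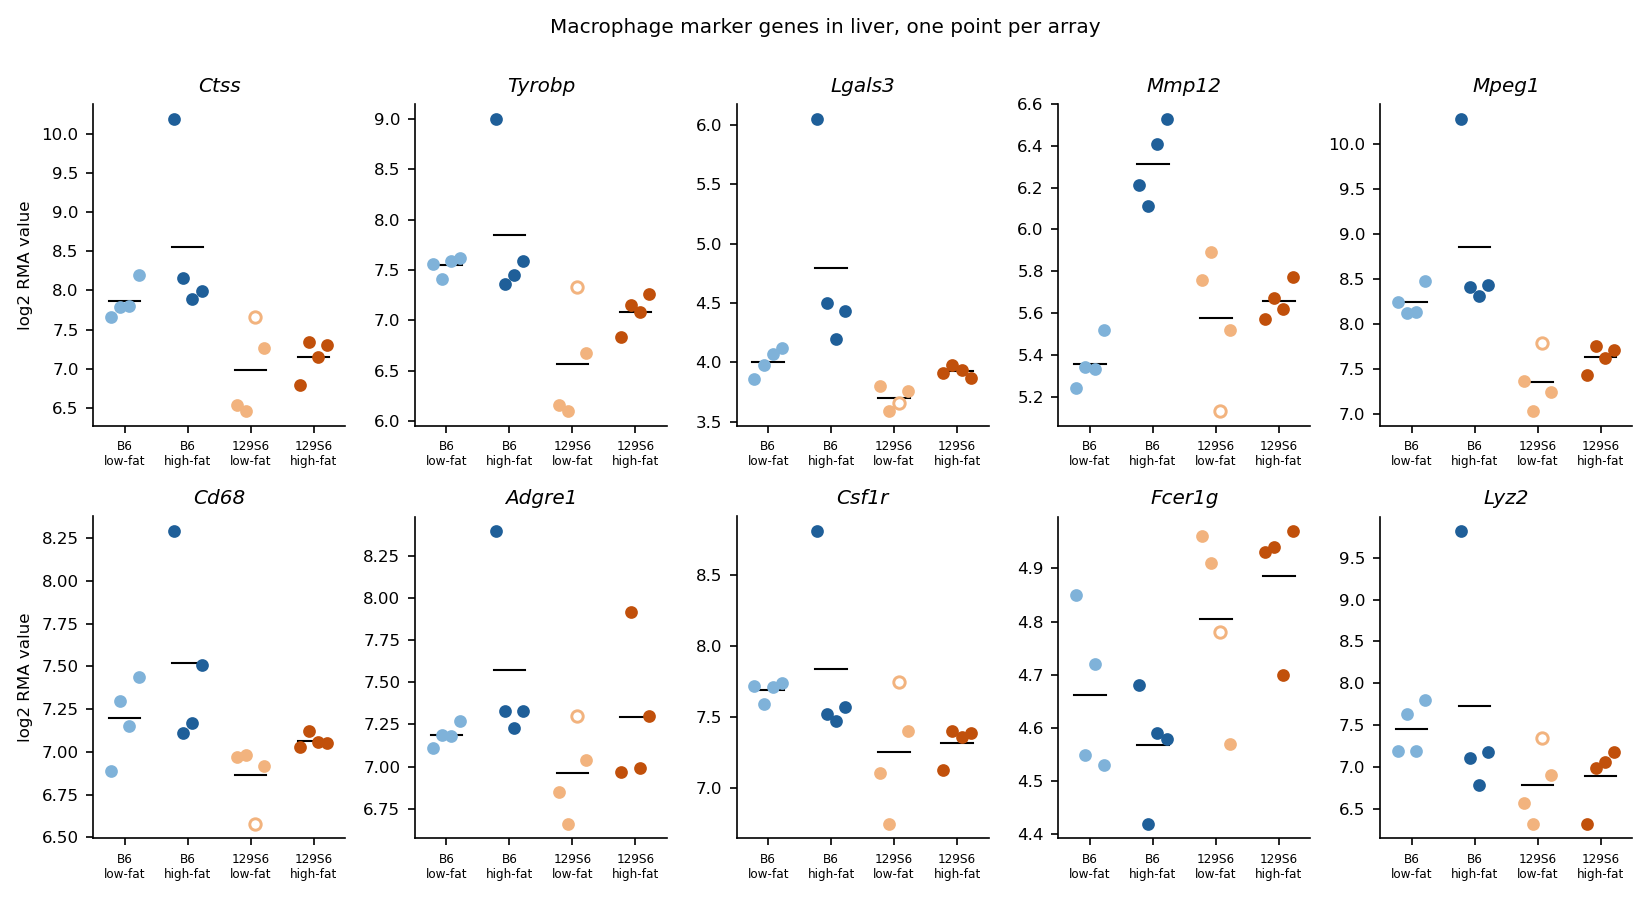
Log2 RMA values of the 10 macrophage marker genes in liver, with 1 point per array, a black line at each group mean and a vertical axis of its own in each panel; the open point is the array whose Gapdh signal (3′ minus 5′) was above 3. Array 13 is the high point of the B6 high-fat group in 8 panels, while all 4 points of that group are high for Mmp12.

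Between the strains, Tyrobp was higher in B6 liver on the low-fat diet and Mmp12, Mpeg1 and Ctss on the high-fat diet. The low-fat B6 arrays form a run of array numbers of their own, so strain and run cannot be told apart on the low-fat diet. On the low-fat diet Tyrobp read 7.56, 7.41, 7.59 and 7.62 in B6 and 6.16, 6.10, 7.33 and 6.68 in 129S6 mice, without overlap. The difference was 0.97 ± 0.30 (adjusted p = 0.0398), the only call among the 10 genes, where 13.8% of all genes were called, 10% as higher, and it was lost on leaving out any of 8 of the 16 liver arrays. The strain groups did not overlap for 4 of the 10 genes, as for 10.4% of all genes in this direction. Of the other genes, Ctss, Mpeg1 and Csf1r had differences of 0.88 ± 0.39, 0.89 ± 0.31 and 0.44 ± 0.24, not called. Without array 13 of B6, which changes only the pooled spread here, Tyrobp, Ctss, Mpeg1 and Lgals3 were called. Without low-fat array 11 of 129S6, whose Gapdh signal was 3.26, Tyrobp (1.23), Mpeg1 (1.03) and, as lower in B6 mice, Mmp12 (-0.37) were called.

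On the high-fat diet Mmp12 was higher in B6 liver by 0.66 ± 0.14 (adjusted p = 0.00914), Mpeg1 by 1.23 ± 0.31 (adjusted p = 0.0309) and Ctss by 1.41 ± 0.39 (adjusted p = 0.0459), where 5.16% of all genes were called, 3.03% as higher. The strain groups did not overlap for 6 of the 10 genes with B6 higher, where 9.44% of all genes did not. In 129S6 liver on that diet Mpeg1 read 7.43, 7.75, 7.62 and 7.71 and Ctss 6.79, 7.34, 7.15 and 7.30, below all 4 B6 arrays for both genes. Without array 13 of B6 the differences were 0.69 for Mmp12, 0.76 for Mpeg1 (both still called), 0.45 for Lgals3 (then called, adjusted p = 0.0127) and 0.87 for Ctss (adjusted p = 0.0590). Leaving out any 1 of the 129S6 high-fat arrays ended the calls of Mpeg1 and Ctss, with adjusted p of 0.0635 to 0.135. With the run of array numbers as a term, Mmp12 was called alone (1.16, adjusted p = 0.00197), with 0.91 for Mpeg1 and 0.44 for Ctss. The 129S6 high-fat arrays and the B6 high-fat arrays lie in different runs, linked by the 129S6 low-fat arrays, which fall into both.

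The lists gave these counts in liver. Between the diets in B6 mice, 1 of the 19 other macrophage genes rose, Cd14, a receptor for lipopolysaccharide (0.66 ± 0.10, adjusted p = 3.85e-04), and of the 8 Kupffer cell genes 1 fell, Fcna, a ficolin (-0.67 ± 0.11, adjusted p = 4.54e-04). These list counts stand against 18.2% of all genes called in this comparison, 6.21% as higher. Cd14 and Fcna differed from the 129S6 diet difference, Cd14 by 0.57 (adjusted p = 0.0265, and 0.0552 with the array SD as a covariate) and Fcna by -0.85 (adjusted p = 0.00325). Cybb, the catalytic subunit of the phagocyte NADPH oxidase, rose by 0.78 ± 0.21 (adjusted p = 0.0168), Csf1 by 0.35 ± 0.09 (adjusted p = 0.0102) and Itgax, an integrin of dendritic cells and some macrophages, by 0.43 ± 0.11 (adjusted p = 0.0155). Of the 18 lysosomal genes 2 rose and 1 fell, and of the 13 leukocyte genes 2 rose, Cd37 (0.44 ± 0.10) and Coro1a (0.52 ± 0.13). None of these lists was tested as a set. Without array 13 the difference of Cybb was 0.48 (adjusted p = 0.0138). With the array SD as a covariate the calls of Cybb, Csf1, Itgax, Cd37 and Coro1a were lost, with adjusted p of 0.0792 for Coro1a to 0.232 for Itgax. In 129S6 liver no member of any of these lists was called between the diets. Between the strains on the low-fat diet, 13.8% of all genes were called, 10% as higher in B6 liver. Strain and run of array numbers cannot be told apart in that comparison. Higher in B6 liver were 2 of the 19 other macrophage genes (C1qa and C1qc, parts of complement C1q), 2 of the 8 Kupffer cell genes (Fcna and Folr2), 3 of the 18 lysosomal genes (Hexa, Ctsb and Grn), 1 of the 13 leukocyte genes (Lcp1) and 1 of the 11 myeloid transcription factor genes (Bhlhe40). So were 4 of the 7 genes on the list of other galectins and Lgals3bp. Among them Lgals1, galectin-1, differed by 3.29 ± 0.09 (adjusted p = 2.26e-13). Of the 7 colony-stimulating factor genes 2 were lower in B6 liver, among them Csf1 (-0.32 ± 0.09, adjusted p = 0.0225). C1qa had a difference of 1.05 ± 0.34 (adjusted p = 0.0480), and its call was lost with all probe sets, their mean, quantile normalization, only the 2 groups, an intensity trend or the array SD, with adjusted p of 0.0514 to 0.310. C1qc differed by 0.91 ± 0.27 (adjusted p = 0.0325), and without low-fat array 11 of 129S6 neither C1q gene was called (0.68 and 0.71). With the array SD as a covariate the calls of C1qc, Fcna, Folr2, Hexa, Ctsb, Grn, Lcp1, Bhlhe40 and Csf1 were lost too.

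Across the 16 liver arrays, 8 of the 10 genes had median correlations of 0.729 (Cd68) to 0.900 (Ctss and Mpeg1) with the other 9, while Mmp12 stood at 0.275 and Fcer1g at -0.346. Array 13 weighs on all of these. The 5 other genes most like the mean of the 10 in liver were Tmsb10 (r = 0.969), Cd53 (0.968), a leukocyte surface protein, Ly86 (0.966), Cd74 (0.96), the invariant chain of MHC class II, and Cxcl9 (0.959). Without the 2 arrays farthest from the median of the mean these were 0.775 to 0.877.

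**Figure D4:**
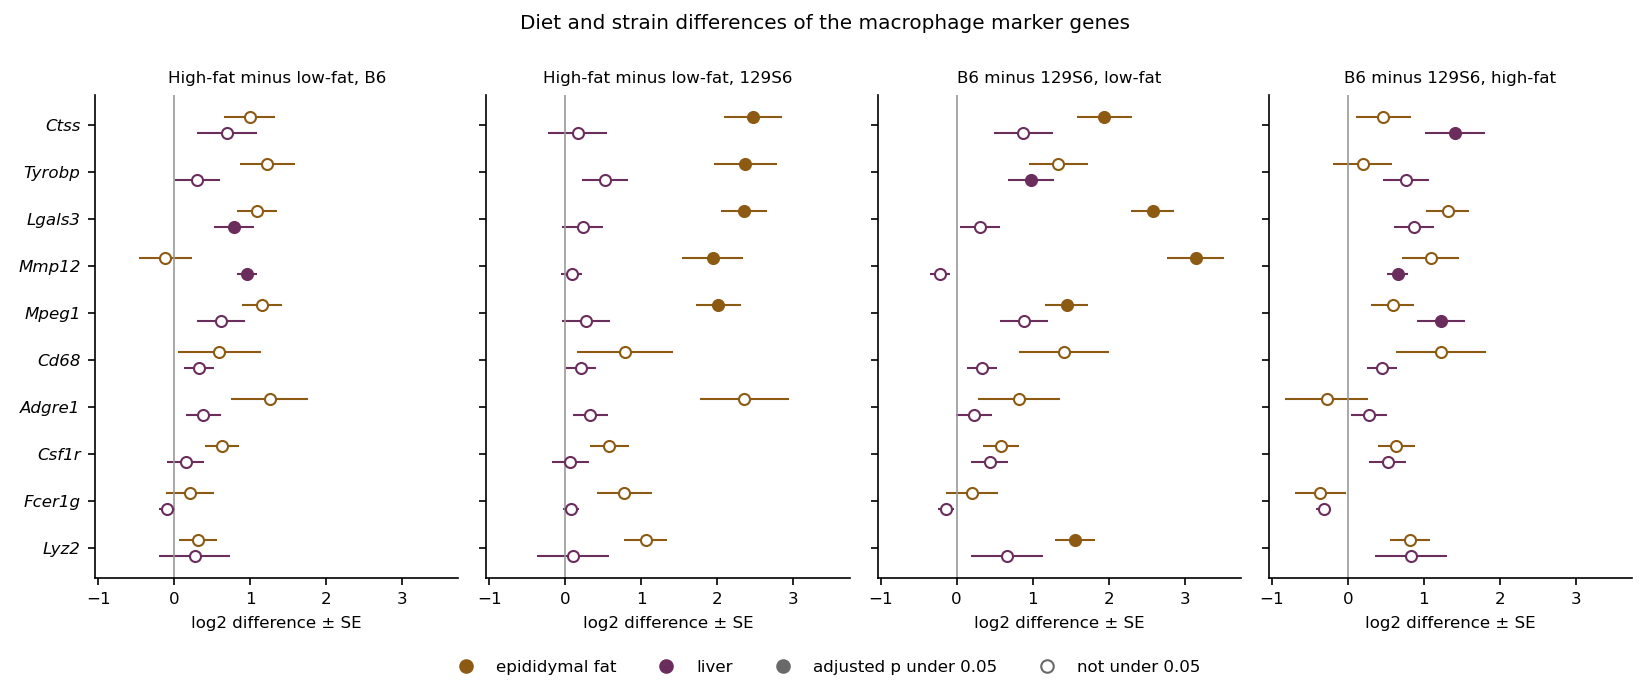
Log2 differences ± SE of the 10 macrophage marker genes in 4 comparisons, in epididymal fat and in liver, with filled points where the adjusted p was under 0.05. Fat points lie to the right of liver points for every gene in the second panel (diet in 129S6), and the only filled liver points in the first panel (diet in B6) are Mmp12 and Lgals3.

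The fat and liver differences were compared in 1 fit over all arrays. The diet difference in 129S6 mice was larger in fat than in liver for Ctss (by 2.30 ± 0.63, adjusted p = 0.0417), Lgals3 (2.13 ± 0.46, adjusted p = 0.00686), Mmp12 (1.85 ± 0.39, adjusted p = 0.00504) and Mpeg1 (1.74 ± 0.46, adjusted p = 0.0336), where 2.41% of all genes were called, 0.909% as larger. The call of Ctss was lost on leaving out any of 10 arrays and that of Mpeg1 any of 9, of 30 fat and liver arrays. The diet difference in B6 mice was called larger or smaller in fat for none of the 10 genes, where 7.84% of all genes were, and the largest size was -1.07 ± 0.36 for Mmp12 (adjusted p = 0.0552). The strain difference on the low-fat diet was larger in fat for Mmp12 (3.36 ± 0.37, adjusted p = 6.78e-08) and Lgals3 (2.27 ± 0.44, adjusted p = 0.00122), where 3.14% of all genes were called, 0.861% as larger. On the high-fat diet none of the 10 strain differences was called as different between the tissues, where 1.18% of all genes were. Mmp12 and Lgals3 lie in the dimmest part (1 in 3) of the genes in liver but not in fat. The part of this low signal in their differences between the tissues was not tested. Fat and liver arrays lie in different runs of array numbers, and in liver the low-fat B6 arrays form a run of their own.

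In skeletal muscle 1 marker gene was called between the diets, Lyz2 in B6 mice, where 26.8% of all genes were called, 12% as lower. Lyz2 read 9.91, 7.40 and 7.35 on the low-fat and 6.60, 5.59, 5.55 and 6.12 on the high-fat diet in B6 muscle. In 129S6 muscle Lyz2 read 6.14, 7.52, 7.85 and 7.54 on the low-fat and 8.54, 8.57, 6.63 and 6.67 on the high-fat diet. All high-fat B6 arrays lay below all low-fat B6 arrays, as for 16.4% of all genes, of which array 13 was the highest, and the 129S6 diet groups overlapped. Lyz2 fell by 2.26 ± 0.66 in B6 mice (adjusted p = 0.0270), and the difference was -1.41 (adjusted p = 0.141) without array 13 of low-fat B6. It was also lost without B6 array 6 (-2.13, adjusted p = 0.0648) or array 7 (-2.12, adjusted p = 0.0628). The SD of all values of an array was 1.56 to 1.67 in the high-fat B6 muscle arrays and 1.53 in low-fat array 9 of 129S6, which had the lowest Lyz2 of its group, against 1.75 or more in the other muscle arrays. With this SD as a covariate the Lyz2 difference was -1.07 (adjusted p = 0.564). Other measures separated the same low-fat and high-fat B6 muscle arrays. The Gapdh signal was 0.35 to 0.81 in the low-fat and 1.19 to 3.36 in the high-fat arrays, and with it as a covariate the Lyz2 difference was -3.07 (adjusted p = 0.0143). The mean of 10 skeletal muscle genes was 12.01 to 12.17 against 10.37 to 11.56, that of 4 red blood cell genes 7.88 to 9.67 against 7.09 to 7.36 and that of 9 adipocyte genes 7.83 to 8.28 against 7.15 to 7.49. The mean of 13 neutrophil genes overlapped between these groups and reached 8.72 in a low-fat array. The part of these in the fall of Lyz2 was not tested.

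Between the strains in muscle, Mmp12 was the only one of the 10 genes called, as higher in B6 mice on the high-fat diet (0.58 ± 0.20, adjusted p = 0.0418), where 29.3% of all genes were called, 15.5% as higher. Mmp12 read 5.74, 5.83, 5.81 and 5.53 in B6 and 5.45, 5.20, 5.16 and 4.77 in 129S6 mice on that diet, without overlap, as for 20% of all genes. These values lie in the dimmest part (1 in 3) of the genes, the call was lost on leaving out any of 7 of the 15 arrays, and with the array SD as a covariate the difference was 0.16. The second probe set of Mmp12 differed by 0.19 ± 0.11, not called. On the low-fat diet, between the 129S6 diets and in the test of the strains' diet differences no marker gene was called, where 0.279%, 0% and 3.19% of all genes were. Some high values came from single arrays. Array 13 of low-fat B6 was highest of its group for Ctss, Tyrobp, Lgals3, Mpeg1, Cd68, Adgre1, Csf1r and Lyz2. It was so by little for Adgre1 (6.81, group median 6.73) and Csf1r (7.49, group median 7.39). Array 2 of high-fat 129S6 read 9.43 for Adgre1, 8.35 for Tyrobp and 8.60 for Ctss, while Lyz2 was high in array 1 of that group as well.

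**Figure D5:**
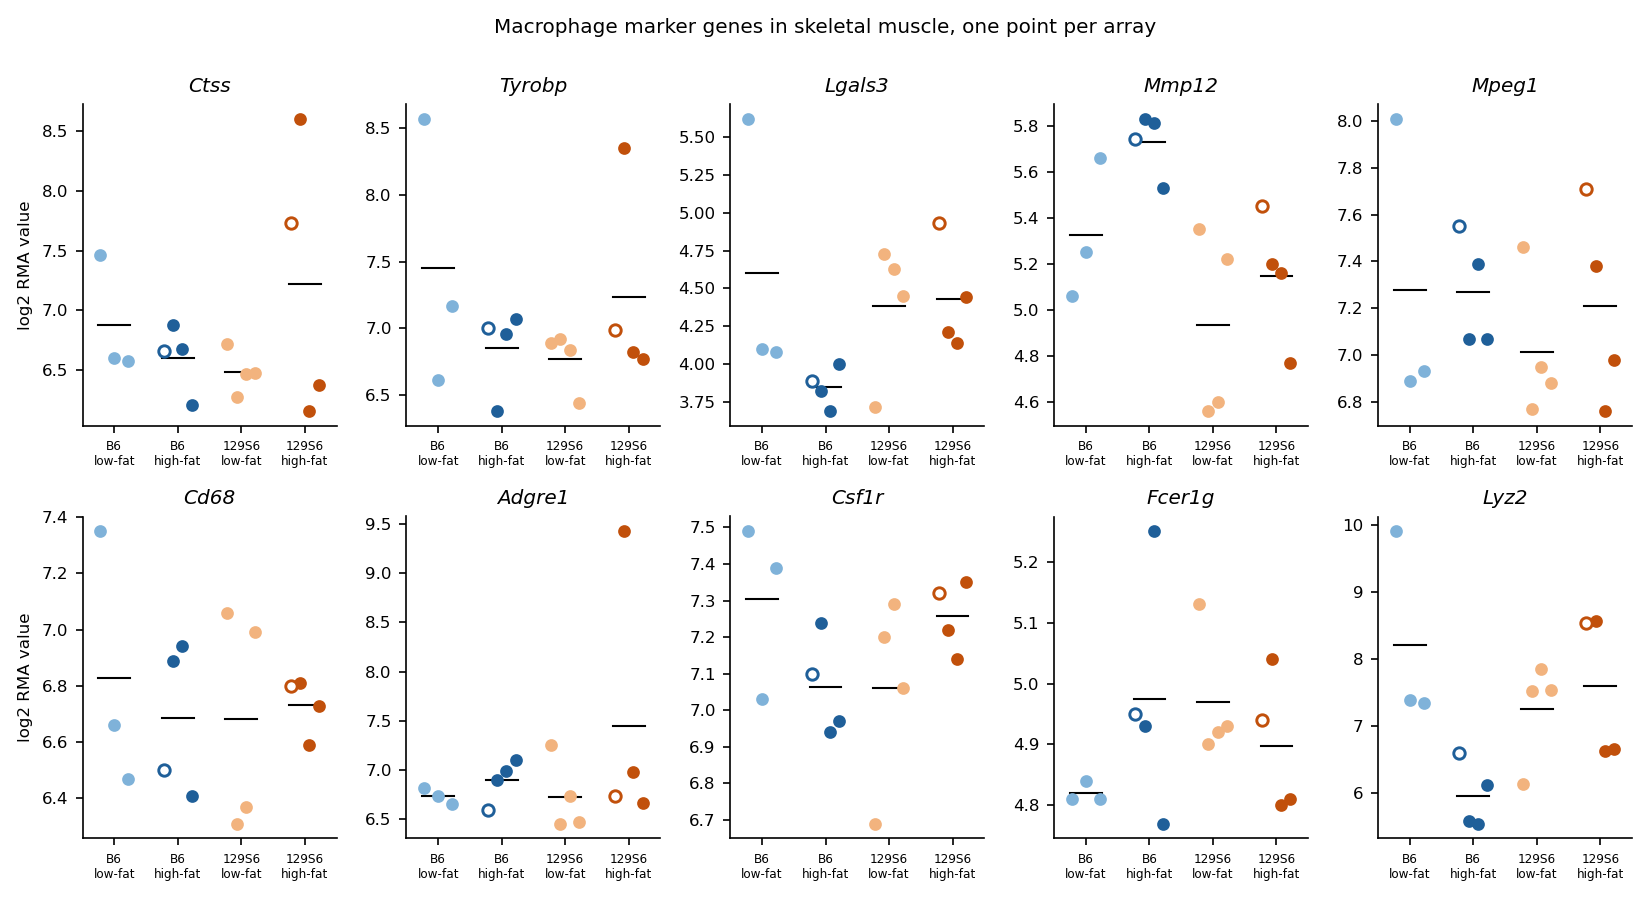
Log2 RMA values of the 10 macrophage marker genes in skeletal muscle, with 1 point per array, a black line at each group mean and a vertical axis of its own in each panel; open points are the 2 arrays whose Gapdh signal (3′ minus 5′) was above 3. Array 13 of low-fat B6 and array 2 of high-fat 129S6 are the high points for Tyrobp, at 8.57 and 8.35.

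Over the 4 groups of each tissue, all 10 genes were higher in fat than in liver, where 57.7% of all genes were called, 29.1% as higher. The differences were 3.81 ± 0.16 for Lgals3, 2.80 ± 0.27 for Lyz2, 2.38 ± 0.13 for Mmp12, 2.05 ± 0.20 for Tyrobp, 1.97 ± 0.22 for Ctss, 1.62 ± 0.19 for Cd68, 1.30 ± 0.23 for Adgre1, 1.22 ± 0.11 for Csf1r, 0.93 ± 0.16 for Mpeg1 and 0.28 ± 0.11 for Fcer1g. The call of Fcer1g was lost without array 13 of high-fat 129S6 fat (0.14, adjusted p = 0.0777), and its other probe set averaged 4.72 in fat and 4.73 in liver. Against muscle, 9 of the 10 were higher in fat, where 71.5% of all genes were called, 30.4% as higher, and the exception was Fcer1g (0.04 ± 0.11). Between liver and muscle, Ctss (0.84 ± 0.21), Mpeg1 (0.83 ± 0.15), Mmp12 (0.44 ± 0.13), Cd68 (0.43 ± 0.19) and Csf1r (0.36 ± 0.11) were higher in liver and Fcer1g (-0.24 ± 0.10) was lower, where 68% of all genes were called, 24.6% as higher and 43.4% as lower. With the mean of its probe sets Csf1r turned to -0.02095 (adjusted p = 0.808). The calls of Cd68 and Fcer1g were lost on leaving out single arrays, with adjusted p of up to 0.0860 and 0.0671. Tyrobp, Lgals3, Adgre1 and Lyz2 were not called between liver and muscle, with differences of 0.18, -0.21, 0.31 and -0.05. The tissues were on different runs of arrays, so tissue and run cannot be told apart.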

How the data were processed

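Total RNA pooled from 2 to 3 mice was hybridised to 45 Affymetrix mouse arrays of liver, muscle and epididymal fat. The authors deposited log2 intensities from RMA, named in the submitters' processing notes; no version is given there. Array medians were 6.07 to 6.24. Precision is limited by how many arrays there were. Of 12488 probe sets, 10833 carried 1 gene symbol, 396 several, 1193 none and 66 were controls; 10817 were matched to current symbols by Entrez ID. The brightest probe set in a tissue stood for a gene. limma 3.58.1 (R 4.3.3) was fitted to the 4 groups of a tissue over 8251 genes, with Benjamini-Hochberg adjustment; tissues were compared in 1 fit over 45 arrays. The fit was checked on simulated data. Figures were drawn with matplotlib 3.10.9. The marker genes and lists were chosen with earlier results of these data known. From each list, called genes with the smallest adjusted p were named. The alternatives were other probe set choices, filters, normalization, priors, covariates and each array left out; leaving out arrays of a Gapdh signal above 3 was chosen after seeing the data. Samples were taken as separate pools, as labelled; p-values measure the spread between them, which may be technical.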

Additional observations from a re-analysis of the deposited data

Results flagged for a closer look

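Single arrays stood far from the others of their group in 17 of 90 gene and group combinations of 4 arrays, where chance gives about 1 in 20; groups of 3 were not tested. Of these, 7 came from array 13 of B6 liver on the high-fat diet. It read 10.19 for Ctss (7.89 to 8.16 in the other 3), 9.00 for Tyrobp (7.36 to 7.59), 6.05 for Lgals3 (4.20 to 4.50), 10.28 for Mpeg1 (8.31 to 8.43), 8.40 for Adgre1 (7.23 to 7.33), 8.81 for Csf1r (7.47 to 7.57) and 9.82 for Lyz2 (6.78 to 7.18).

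In muscle of 129S6 mice on the high-fat diet, array 2 read 8.35 for Tyrobp (6.77 to 6.99 in the others) and 9.43 for Adgre1 (6.66 to 6.98). In low-fat B6 fat, array 4 read 9.26 for Csf1r (8.50 to 8.59). Low-fat 129S6 muscle had 5.13 for Fcer1g in array 9 (4.90 to 4.93) and 6.44 for Tyrobp in array 12 (6.84 to 6.92), and high-fat B6 muscle had 6.38 for Tyrobp in array 6 (6.96 to 7.07). In liver, Cd68 read 6.58 in low-fat 129S6 array 11 (6.92 to 6.98), Csf1r read 7.59 in low-fat B6 array 2 (7.71 to 7.74) and 7.13 in high-fat 129S6 array 7 (7.36 to 7.40), and Fcer1g read 4.70 in high-fat 129S6 array 9 (4.93 to 4.97).

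Effects differed between groups by a test of the difference itself in 7 cases. The diet difference of Mmp12 in liver was larger in B6 than in 129S6 mice by 0.87 (adjusted p = 0.0138), a call lost with the array SD as a covariate. The diet difference in 129S6 mice was larger in fat than in liver by 2.30 for Ctss, 2.13 for Lgals3, 1.85 for Mmp12 and 1.74 for Mpeg1. The strain difference on the low-fat diet was larger in fat by 2.27 for Lgals3 and 3.36 for Mmp12. In liver, but not in fat, Lgals3 and Mmp12 lie among the dimmest genes.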

How the results depend on the processing

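The number of marker genes called moved as follows. In fat, without arrays of a Gapdh signal above 3 it was 3 instead of 0 for diet in B6 and 8 instead of 5 for strain on the low-fat diet; with the run of array numbers as a term it was 1 instead of 5 for diet in 129S6 and 2 for strain on the low-fat diet; with the Gapdh covariate it was 3 for diet in 129S6 and 1 instead of 0 for strain on the high-fat diet; with the array SD it was 3 for strain on the low-fat diet. In liver, the count for diet in B6 was 1 instead of 2 with all probe sets, their mean, gene-specific sets, quantile normalization, only the 2 groups, an intensity trend or the Gapdh covariate. It was 0 without the dimmest part (1 in 3), which leaves both Mmp12 and Lgals3 untested. For strain on the low-fat diet it was 0 instead of 1 with quantile normalization, the trend or the array SD, 2 with only the 2 groups and 3 without arrays of a Gapdh signal above 3. For strain on the high-fat diet it was 1 instead of 3 with the run and 5 with the array SD. For the strain-by-diet difference it was 0 instead of 1 with the array SD. It was also 0 with gene-specific sets and without the dimmest part (1 in 3), which both leave Mmp12 untested. In muscle, diet in B6 gave 0 instead of 1 with the array SD. Strain on the high-fat diet gave 0 instead of 1 with the mean of sets, with the array SD or without arrays of a Gapdh signal above 3. It also gave 0 without the dimmest part (1 in 3), which leaves Mmp12 untested. It gave 3 with only the 2 groups and 2 with the Gapdh covariate, which also gave 1 instead of 0 for the strain-by-diet difference. Liver minus muscle gave 2 instead of 6 with the mean of sets and 3 with gene-specific sets. Gene-specific sets hold no probe set of Mmp12 or Cd68, so these genes were untested in every count with that setting. Where no construction shows it, the cause was not tested.

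With 1 array left out in turn, the counts ranged from 0 to 1 (diet in B6), 1 to 7 (diet in 129S6), 2 to 6 (strain, low-fat) and 0 to 2 (strain, high-fat) in fat, from 1 to 2, 0 to 0, 0 to 4 and 1 to 4 in liver, and from 0 to 1, 0 to 0, 0 to 0 and 0 to 2 in muscle. The strain-by-diet count stayed at 0 in fat, 1 in liver and 0 in muscle. Fat minus liver gave 9 to 10, fat minus muscle 9 to 9 and liver minus muscle 4 to 6. Signs turned for Fcer1g between the strains in muscle on the high-fat diet, -0.54 with gene-specific sets, which is its other probe set, and for Csf1r between liver and muscle, -0.02095 with the mean of its sets.

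No paired analysis was possible within a tissue because its groups share no replicate numbers. Across tissues, the replicate block gave 10, 9 and 6 called genes, the same counts as without it, with a correlation of -0.08 within numbers.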
